A study of Ambystoma mexicanum with 61 samples.

Results

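The liver comparison set 2 libraries from metamorphosed axolotls against 2 from neotenic axolotls, 4 of the 61 bulk RNA-seq libraries of an atlas of adult axolotl tissues. The libraries were chosen by their labels alone. Axolotls (Ambystoma mexicanum) are salamanders that reach sexual maturity with gills and fins and stay in water, a condition called neoteny. The metamorphosed animals had been turned into gill-less land salamanders with thyroxine (T4), the thyroid prohormone, given in the water. The neotenic animals had kept their aquatic form without T4. All 4 animals were 1-year adults of the d/d strain, and the study's methods give 2 animals for each state. The same animals had received T4 and completed metamorphosis, so that hormone treatment and body form cannot be told apart. The label of each library also gives a batch, 1 or 2, and this number is used below as the replicate number. Within each state, values are given for library 1 and then library 2.

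The liver takes up nutrients from the gut, stores glycogen, makes fatty acids and cholesterol, breaks down amino acids, turns ammonia into urea and secretes most plasma proteins. Thyroid hormones act through nuclear receptors that are bound to DNA, and the deiodinase enzymes in each tissue set how much active hormone its cells see. In frogs, liver metamorphosis is known for a switch from ammonia excretion toward urea synthesis and for a change in the secreted plasma proteins. In mammals, thyroid hormone is known to control both the synthesis and the burning of fatty acids in liver.

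The metamorphosed liver libraries held 10790826 and 27389476 counted fragments, and the neotenic ones 16053244 and 11430723. At these depths 3 counts corresponded to between 0.110 and 0.278 CPM, counts scaled to a common library total. CPM below are scaled by the library total and by the TMM factor, an edgeR correction for differences in RNA composition. That factor lay between 0.444 and 0.618 in the liver libraries, so 3 counts stand at a higher CPM on the scale used below. For example, 2 counts of tyro3 in neotenic liver 2 were 0.283 CPM. Liver identity was clear in each library. Of 14 hepatocyte markers, 12 matched a gene model by symbol, and their mean log2(CPM of the library total + 1) was 11.01 and 10.95 in metamorphosed livers and 11.69 and 11.20 in neotenic livers. In the 57 libraries of other tissues this level lay between 1.17 and 5.63. Between the states, 8 of the 12 markers had a log2 fold change below 0 and 4 above. Among all 20216 genes tested, 8398 lay below 0 and 11818 above. The median of the markers was -0.45. Their summed CPM overlapped between the states. The gene model with the most reads per kilobase in each liver library carried the name LSU, which identifies no liver protein and is also used for the RNA of the large ribosomal subunit. Whether it is ribosomal RNA was not tested. It had 180461 and 291181 CPM in metamorphosed livers and 229904 and 135223 CPM in neotenic livers, and its highest mean outside liver was 1030.4 CPM, in metamorphosed kidney. The gamma chain of the clot protein fibrinogen, fgg, ranked between 2 and 5 by reads per kilobase in the 4 libraries.

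The animals of 1 state differed about as much from each other as from the other state. Over the 20216 genes tested, the correlation of log2(CPM + 1) was 0.937 between the metamorphosed livers and 0.965 between the neotenic livers. Across the states it lay between 0.942 and 0.959. These correlations are across genes, which are not independent replicates. In bulk tissue, fewer cells of a type and less RNA per cell cannot be told apart.

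Metamorphosed and neotenic livers were compared for all genes to ask which genes differed in level after metamorphosis. Of the 20216 genes tested, 4 passed an adjusted p of 0.05 in edgeR's quasi-likelihood test, 0.0198% of those tested. Among these, 2 rose and 2 fell in metamorphosed livers, 0.00989% of all genes in each direction. An unadjusted p under 0.05 was reached by 667 genes (3.3%), of which 459 were higher (2.27% of all genes) and 208 lower (1.03%) in metamorphosed livers. With the batch number as a replicate block over all 61 libraries, the count was 8. It was 2 without neotenic liver 1, 1 without neotenic liver 2, and 0 in a fit of the liver libraries with crossed batch numbers, which was chosen after seeing the data and had 648 genes at an unadjusted p under 0.05. Fits of only the 4 liver libraries, the crossed one among them, tested 13473 genes and not 20216. Without a block such a fit called 12 genes. DESeq2 called 90, of which 41 lay under 5 CPM in all 4 liver libraries. The plot of all genes shows the 4 genes that passed beside several that did not, at log2 fold changes of similar size.

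**Figure D1:**
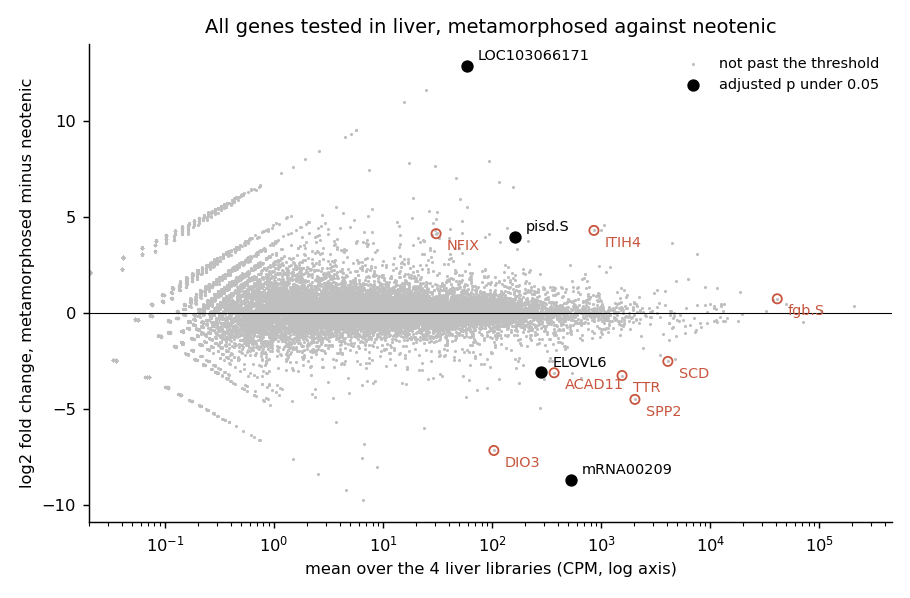
Each point is 1 of 20216 genes, with its mean over the 4 liver libraries in TMM-scaled CPM on a log axis and its log2 fold change, metamorphosed minus neotenic, on the vertical axis. Black points are the 4 genes with an adjusted p under 0.05, and red circles mark 8 genes described in the text that did not pass, such as DIO3 at -7.15 and fgb.S at 0.76.

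ELOVL6, the enzyme that elongates long-chain saturated fatty acids, was the named metabolic gene that fell. It had 69.8 and 49.7 CPM in metamorphosed livers, against 310.2 and 699.9 CPM in neotenic livers. Both metamorphosed livers lay well below both neotenic ones. The log2 fold change was -3.08 (SE 0.46, adjusted p = 0.000996), and ELOVL6 passed in 10 of 15 alternative analyses with adjusted p-values up to 0.261. It did not pass without metamorphosed liver 2, without neotenic liver 2 or in the fits of only the 4 liver libraries.

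The other gene that fell, mRNA00209, has no gene name in the files. It had 4.86 and 0.576 CPM in metamorphosed livers, against 1296 and 831 CPM in neotenic livers (log2 fold change -8.67, SE 1.10, adjusted p = 0.000548). Outside liver its highest mean in any group of libraries was 0.921 CPM, in neotenic lung. It passed in 14 of 15 alternatives.

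Of the genes that rose, LOC103066171 had no count in either neotenic liver. In metamorphosed livers it had 132 and 103 CPM, at least 286-fold higher than 3 counts per library (adjusted p = 0.00843). Outside liver its highest group mean was 10.8 CPM, in metamorphosed hind limb. It did not pass without neotenic liver 1 or without neotenic liver 2.

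The gene pisd.S codes for phosphatidylserine decarboxylase, which makes the membrane lipid phosphatidylethanolamine in mitochondria. It had 566 and 43.7 CPM in metamorphosed livers, against 24.1 and 14.2 CPM in neotenic livers (log2 fold change 3.99, SE 0.70, adjusted p = 0.0113). The states did not overlap, but the size of the difference came from metamorphosed liver 1. Without that library the log2 fold change was 1.14 and the gene did not pass, and it did not pass without neotenic liver 1, without neotenic liver 2 or in any fit of only the 4 liver libraries either. A further gene model of the same enzyme, pisd, had 490 and 127 CPM in metamorphosed livers and 199.9 and 105 CPM in neotenic livers, with overlapping states.

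Hormone handling was examined through 18 listed genes of the thyroid hormone pathway, of which 11 matched a gene model and none passed the test. The largest difference among them was that of DIO3, the deiodinase that inactivates thyroid hormones. DIO3 had 1.30 and 1.56 CPM in metamorphosed livers, against 248 and 164 CPM in neotenic livers. Its mean was 144-fold lower in metamorphosed livers, and replicate libraries of each state lay close together. The log2 fold change of -7.15 had a standard error of 1.76 in a fit that estimates the spread from all tissues, and the adjusted p was 0.238. DIO3 passed in 4 of 15 alternatives, among them the fit of only the 4 liver libraries and DESeq2, and its adjusted p ranged between 8.34e-05 and 1 over the alternatives.

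The liver difference of DIO3 had the opposite sign of its mean difference over other tissues. Over 11 other tissues with 2 libraries in each state, DIO3 averaged a log2 fold change of 2.30, higher in metamorphosed tissues. Its highest group mean outside liver was 46.8 CPM, in metamorphosed eye. The 11 tissues include skin, where metamorphosed library 1 held 69278 counted fragments, and values of single tissues are not given here. The liver difference minus this mean was -9.45 (SE 1.96, unadjusted p = 3.02e-05, adjusted p = 0.153), which did not pass over all genes.

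The other members differed less. HR, the hairless corepressor that thyroid hormone induces in rodent brain, had 11.01 and 1.07 CPM in metamorphosed livers, against 0.529 and 0 CPM in neotenic livers. The states of HR did not overlap, and it did not pass. KLF9, a transcription factor and direct thyroid hormone target in frogs that was picked after its values were seen, gave no such separation, with 8.58 and 23.5 CPM in metamorphosed livers and 27.4 and 3.54 CPM in neotenic livers.

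A sulfotransferase gene model named Sult1b1 was picked after its values were seen, since enzymes of this family sulfate and so inactivate thyroid hormones in mammals. It had 1.30 and 0.247 CPM in metamorphosed livers, against 54.1 and 39.8 CPM in neotenic livers (log2 fold change -5.99, adjusted p = 0.198). A further model of the same name, SULT1B1, had 34.8 and 47.1 CPM in metamorphosed livers and 20.1 and 37.8 CPM in neotenic livers. Fragments of near-identical gene copies could have been split or dropped in counting, so that values of single models are uncertain where a symbol has several.

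The metabolic genes formed 11 lists with 206 members tested, each member counted 1 time. Among them, 56 were lower in both metamorphosed livers than in both neotenic livers (27.2%), and 12 were higher in both (5.83%). Over all genes tested, 10.6% were lower and 14.5% higher without overlap, 25.1% together. The log2 fold change was below 0 in 8398 of the 20216 genes tested and above 0 in 11818. These shares and counts are the ones to set beside the count of each list below. ELOVL6 was the metabolic member that passed the test, and the median log2 fold change of the members was -0.20, beside 0.06 over all genes. Hepatocyte markers had a median of -0.45, and the part of cell composition in the metabolic values was not tested. The plot of the metabolic lists shows the members of each list with their medians.

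**Figure D2:**
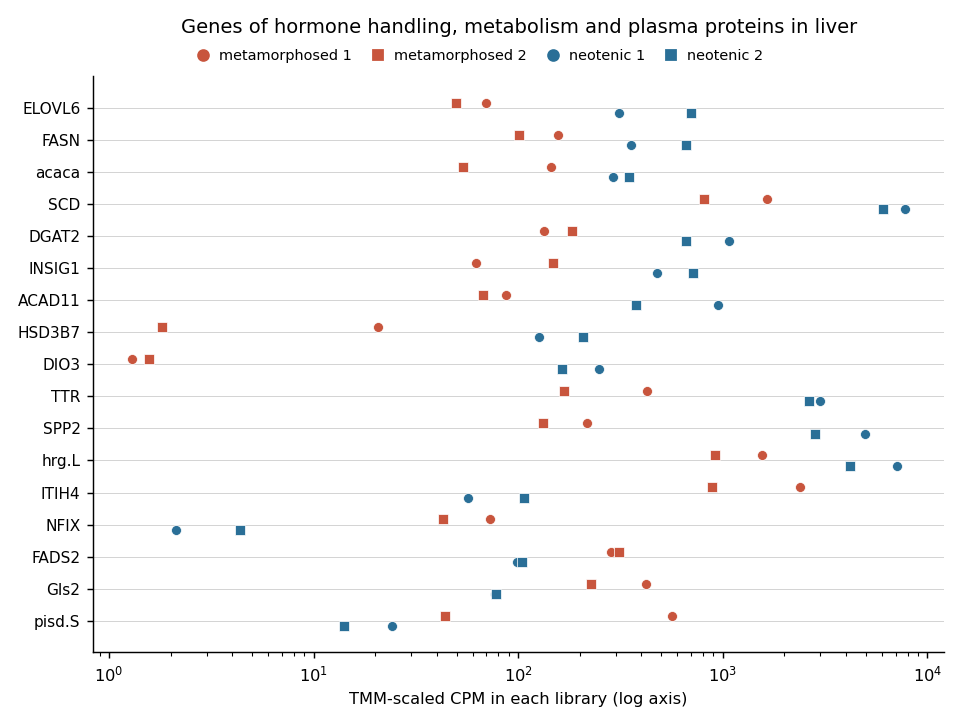
TMM-scaled CPM of 17 genes in each liver library on a log axis, with metamorphosed livers in red above neotenic livers in blue, and circles for library 1 and squares for library 2. The 17 genes were picked from those without overlap between the states, and genes of the same groups with overlapping states are not drawn. Of the 17, only ELOVL6 and pisd.S passed the test. ELOVL6 to hrg.L lie lower and ITIH4 to pisd.S higher in both metamorphosed libraries, and metamorphosed pisd.S ranges between 43.7 and 566 CPM.

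Several genes of fatty acid and triglyceride synthesis were much lower in metamorphosed livers. The list covers the path from acetyl-CoA to stored fat, and all 23 members matched and were tested. Among them, 8 were lower and 3 were higher without overlap, 1 passed (ELOVL6), and the median log2 fold change was -0.49. Of the 23, 13 had a log2 fold change below 0 and 10 above. SCD, which puts the double bond into saturated fatty acids, had 1639.5 and 810 CPM in metamorphosed livers, against 7809 and 6089 CPM in neotenic livers (log2 fold change -2.50, SE 1.00, adjusted p = 1). FASN, the fatty acid synthase, had 157 and 101 CPM in metamorphosed livers, against 356 and 661 CPM in neotenic livers. The acetyl-CoA carboxylase acaca, which commits acetyl-CoA to the path, had 144 and 53.6 CPM in metamorphosed livers, against 291 and 347 CPM in neotenic livers. Thus the genes named here for the carboxylase, the synthase, the elongase and the desaturase were each lower in both metamorphosed livers. They were picked by p, fold change or level in these libraries, and of them only ELOVL6 passed.

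The last step of triglyceride synthesis followed the same order. DGAT2 had 133 and 183 CPM in metamorphosed livers, against 1069.7 and 659 CPM in neotenic livers. Other members of the list were higher. FADS2, a desaturase of polyunsaturated fatty acids, had 284 and 313 CPM in metamorphosed livers, against 98.2 and 105 CPM in neotenic livers, and FADS1 was likewise higher in both metamorphosed livers. None of DGAT2, FADS2 and FADS1 passed the test. The list's median was -0.003 without neotenic liver 1 and between -0.32 and -0.70 without each of the others.

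**Figure D3:**
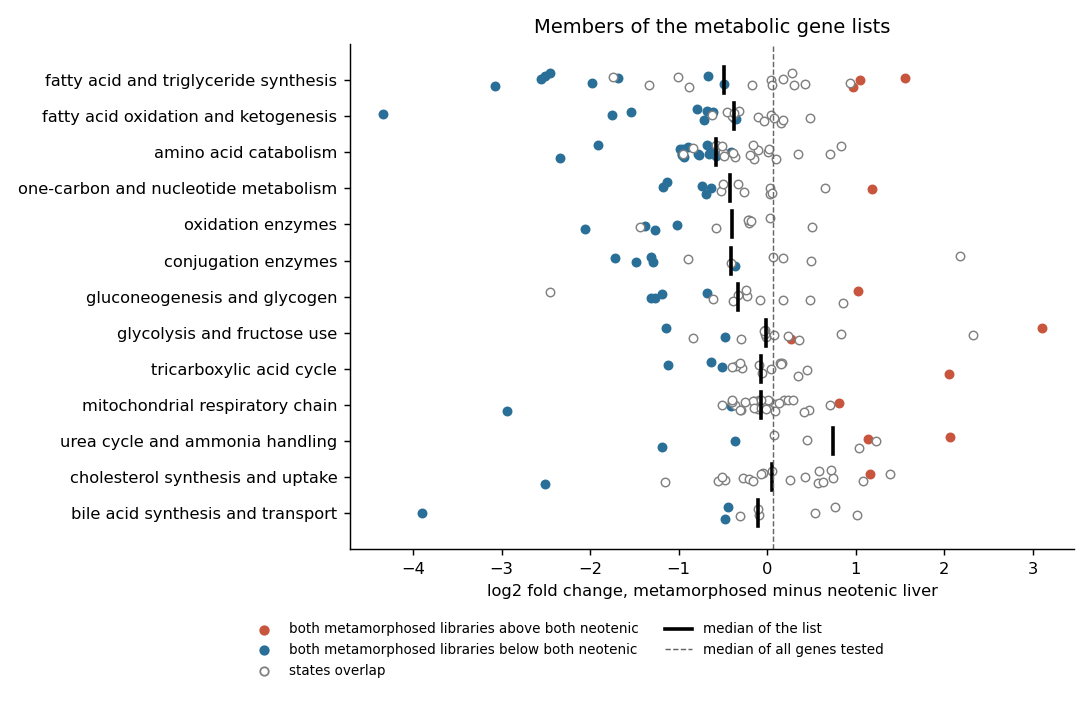
Each point is 1 tested member of a gene list, placed by its log2 fold change, metamorphosed minus neotenic liver. Red points were higher and blue points lower in both metamorphosed livers, open points overlapped, black bars are list medians (amino acid catabolism -0.58, fatty acid synthesis -0.49) and the dashed line is the median of all genes, 0.06.

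Several genes that burn fatty acids were also lower in metamorphosed livers. Of 28 listed genes of fatty acid oxidation and ketogenesis, 21 matched and were tested, 9 were lower without overlap, 0 were higher without overlap and none passed. The median log2 fold change was -0.37 and ranged between -0.67 and -0.27 over the alternatives. ECI2, an isomerase needed for unsaturated fatty acids, had 306 and 143 CPM in metamorphosed livers, against 598 and 707 CPM in neotenic livers.

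Carnitine palmitoyltransferase cpt1a, which admits long-chain fatty acids to mitochondria, had 35.3 and 26.3 CPM in metamorphosed livers and 25.5 and 29.6 CPM in neotenic livers. Its states overlapped. ACAD11, an acyl-CoA dehydrogenase outside this list, had 87.4 and 67.5 CPM in metamorphosed livers, against 948 and 377 CPM in neotenic livers (log2 fold change -3.10, SE 0.70, adjusted p = 0.149).

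Sterol synthesis separated the animals rather than the states. Of 24 listed genes of cholesterol synthesis and uptake, 21 were tested, 1 was higher and 1 lower without overlap, none passed, and the median log2 fold change was 0.05. In 18 of the 21 (85.7%), metamorphosed liver 2 and neotenic liver 1 both lay above metamorphosed liver 1 and neotenic liver 2, an order that 20.4% of all genes showed. HMGCS1, which makes the first committed precursor, had 82.8 and 1996 CPM in metamorphosed livers and 1067 and 485 CPM in neotenic livers. The sterol demethylase cyp51a1 had 81.8 and 1497 CPM in metamorphosed livers and 487 and 118 CPM in neotenic livers. In both genes the metamorphosed libraries were the lowest and the highest of the 4.

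The list's median changed sign with the library left out, at -1.52 without metamorphosed liver 2 and 1.06 without neotenic liver 1. INSIG1, which holds the sterol-regulated transcription factors in the endoplasmic reticulum, did not follow this order. It had 62.3 and 148 CPM in metamorphosed livers, against 475 and 718 CPM in neotenic livers (log2 fold change -2.51, SE 0.90, adjusted p = 1). In the plot of lipid genes by library, most cholesterol genes split by library. The fatty acid genes that the text names split by state, but they were picked by p, fold change or level in these libraries. Of all 23 members of that list, 8 were lower and 3 higher without overlap, and 5 showed the order of the cholesterol genes.

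**Figure D4:**
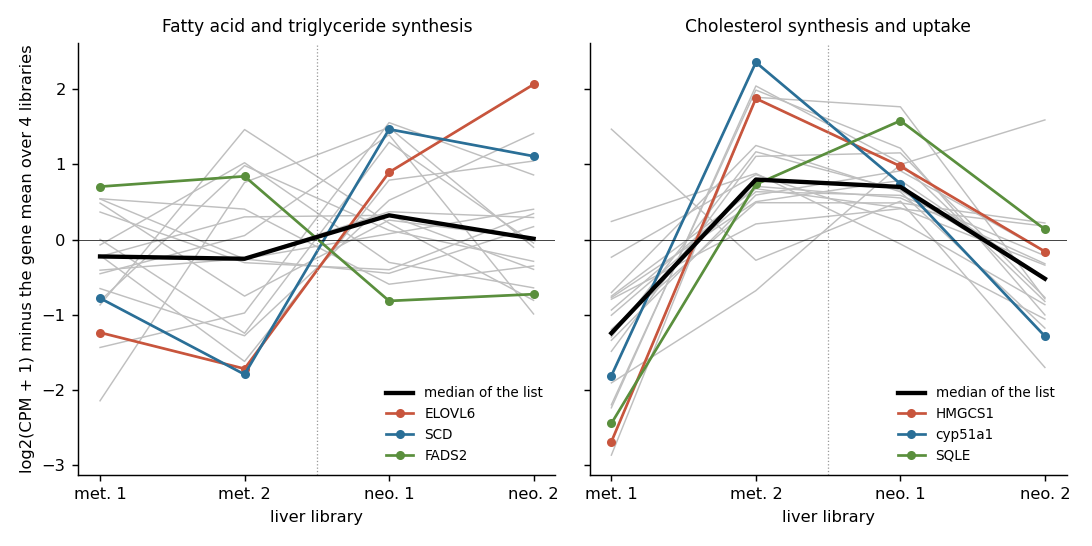
Values of list members with a mean of at least 5 CPM (19 of fatty acid and triglyceride synthesis on the left, 20 of cholesterol synthesis and uptake on the right) in each liver library, as log2(CPM + 1) minus the gene's mean over the 4 libraries; lines join the values of 1 gene. The cholesterol list's median was -1.25 and 0.80 in the metamorphosed libraries and 0.70 and -0.52 in the neotenic ones. The fatty acid list's median was -0.23 and -0.26 in the metamorphosed libraries and 0.32 and 0.01 in the neotenic ones. ELOVL6 and SCD were lower and FADS2 higher in both metamorphosed libraries.

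Bile acid genes were few, with 9 of 21 matched and tested, 3 lower and 0 higher without overlap and a median log2 fold change of -0.10. HSD3B7, an early enzyme in the making of bile acids from cholesterol, had 20.7 and 1.81 CPM in metamorphosed livers, against 126 and 208 CPM in neotenic livers (log2 fold change -3.90, SE 1.16, adjusted p = 0.761). The export pump abcc2, which secretes conjugates into bile, had 234 and 146 CPM in metamorphosed livers and 255 and 151 CPM in neotenic livers, and its states overlapped.

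Amino acid catabolism leaned in 1 direction. Of 42 listed genes, 35 were tested, 17 were lower and 0 higher in both metamorphosed livers, and none passed. That was 17 of 35 beside 10.6% of all genes, and 29 of the 35 had a log2 fold change below 0. The median was -0.58 and lay between -0.65 and -0.33 over the alternatives. The gene aass, which starts lysine breakdown, had 280 and 169 CPM in metamorphosed livers, against 327 and 437 CPM in neotenic livers. The leucine breakdown gene mccc1 had 28.8 and 43.7 CPM in metamorphosed livers, against 63.3 and 50.4 CPM in neotenic livers. DMGDH of choline and glycine metabolism had 102 and 64.3 CPM in metamorphosed livers, against 215 and 106 CPM in neotenic livers. In all 3 the states did not overlap, with differences smaller than that of ELOVL6.

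The most abundant members of the list varied more between animals. The betaine methyltransferase BHMT had 1871 and 7135 CPM in metamorphosed livers and 8113 and 3678 CPM in neotenic livers. The tryptophan dioxygenase tdo2 had 1619 and 2690 CPM in metamorphosed livers and 2065 and 349.96 CPM in neotenic livers. Both had overlapping states. A small gene model of the tyrosine enzyme HPD had 11.3 and 6.42 CPM in metamorphosed livers and no count in neotenic livers, at least 21.6-fold higher than 3 counts per library, while the main model hpd had 1019 and 884 CPM in metamorphosed livers, against 1288 and 1971 CPM in neotenic livers. Summed over models, HPD had a log2 fold change of -0.79, the opposite sign of the small model.

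Genes of nitrogen handling had differences of both signs. Of 13 listed genes of the urea cycle and of ammonia handling, 8 were tested, 2 were higher and 2 lower without overlap, 6 had a log2 fold change above 0, and none passed. Gls2, the liver glutaminase that frees ammonia from glutamine, had 422 and 226 CPM in metamorphosed livers, against 77.0 and 77.8 CPM in neotenic livers. The arginase arg1.L, which releases urea, had 3708 and 6849 CPM in metamorphosed livers, against 2682 and 2109 CPM in neotenic livers. Glutamate dehydrogenase glud1 ran the other way, with 1755 and 1081 CPM in metamorphosed livers, against 3779.9 and 2683 CPM in neotenic livers (log2 fold change -1.19, SE 0.49, adjusted p = 1). ASS1, which joins citrulline and aspartate, had 5266 and 13773 CPM in metamorphosed livers and 13587 and 4533 CPM in neotenic livers, the order of the cholesterol genes. The median of the list was 0.75, and -0.64 without metamorphosed liver 2.

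Of 15 tested genes of gluconeogenesis and glycogen, 1 was higher and 4 lower without overlap, and 11 had a log2 fold change below 0. The median was -0.32, and -0.89 without metamorphosed liver 1. The glycogen primer gyg2.L had 39.8 and 15.6 CPM in metamorphosed livers, against 68.2 and 64.6 CPM in neotenic livers. GYG1, another such primer, was the gene higher without overlap and had 339.6 and 686 CPM in metamorphosed livers, against 181 and 322 CPM in neotenic livers. In glycolysis and fructose use the median of 15 tested genes was -0.02, with 2 higher and 2 lower without overlap.

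The tricarboxylic acid cycle had 16 tested members with a median of -0.07, 1 higher and 3 lower without overlap. Mitochondrial isocitrate dehydrogenase idh2.L had 414 and 1900.3 CPM in metamorphosed livers, against 336 and 221 CPM in neotenic livers. SUCLG2, a subunit of succinyl-CoA ligase, had 75.6 and 101 CPM in metamorphosed livers, against 143 and 241 CPM in neotenic livers. Among 29 tested genes of the respiratory chain the median was -0.07, which was -0.67 without metamorphosed liver 2 and 0.30 without metamorphosed liver 1, and 16 of the 29 showed the order of the cholesterol genes. In this list atp5g3, a gene of the membrane ring of ATP synthase, stood out with 4.53 and 5.26 CPM in metamorphosed livers, against 50.8 and 24.7 CPM in neotenic livers. It is 1 of 3 gene models of its symbol. None of these genes passed.

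One-carbon and nucleotide metabolism had 14 tested members, 1 higher and 5 lower without overlap and a median log2 fold change of -0.42. The folate enzyme aldh1l1.L had 73.7 and 39.4 CPM in metamorphosed livers, against 117 and 130 CPM in neotenic livers. The folate enzyme mthfd1 had 21.4 and 24.7 CPM in metamorphosed livers, against 65.4 and 38.8 CPM in neotenic livers. The gene higher in both metamorphosed livers was cad.L, the start of pyrimidine synthesis, with 18.0 and 11.1 CPM in metamorphosed livers, against 6.35 and 6.38 CPM in neotenic livers.

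Detoxifying enzymes had states that overlapped or lay lower in metamorphosed livers. Among 12 tested oxidation enzymes (cytochromes P450, flavin monooxygenases, alcohol and aldehyde dehydrogenases), 4 were lower and 0 higher without overlap. Over all genes, 10.6% were lower and 14.5% higher without overlap. The median log2 fold change of the oxidation enzymes was -0.40. The alcohol dehydrogenase adh4 had 3382 and 4438 CPM in metamorphosed livers, against 9536 and 6322 CPM in neotenic livers. Among 11 tested conjugation enzymes, 5 were lower and 0 higher without overlap, with a median of -0.41, and gstp1.L, a glutathione transferase, had 85.8 and 337 CPM in metamorphosed livers, against 989 and 400.1 CPM in neotenic livers. No member of either list passed.

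Antioxidant enzymes had a median of -0.08 over 16 tested genes, 0 higher and 3 lower without overlap (14.5% and 10.6% of all genes). Catalase, CAT, had 4148 and 6487 CPM in metamorphosed livers, against 7916 and 11350 CPM in neotenic livers. For heme and iron, 4 of 17 tested genes were higher and 2 lower without overlap, and the median was 0.14. BLVRA, which makes bilirubin, had 26.6 and 39.7 CPM in metamorphosed livers, against 13.8 and 22.5 CPM in neotenic livers.

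Among plasma proteins, a few genes differed widely in level while most did not. Of 17 tested carrier proteins and protease inhibitors, 1 was higher and 4 lower without overlap (14.5% and 10.6% of all genes). Their median log2 fold change was -0.37. TTR, the carrier of thyroid hormone and of retinol-binding protein, had 428 and 167 CPM in metamorphosed livers, against 2995 and 2625 CPM in neotenic livers (log2 fold change -3.24, SE 0.97, adjusted p = 0.708). ITIH4, a heavy chain of the inter-alpha-trypsin inhibitor family, had 2379 and 889 CPM in metamorphosed livers, against 56.9 and 107 CPM in neotenic livers (log2 fold change 4.32, SE 1.03, adjusted p = 0.198). ITIH4 passed in 3 of 15 alternatives, with adjusted p-values between 0.0299 and 1.

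Transcripts of further secreted proteins were lower in metamorphosed livers. SPP2, a secreted phosphoprotein of liver and bone, had 216 and 133 CPM in metamorphosed livers, against 4969 and 2836 CPM in neotenic livers (log2 fold change -4.48, SE 1.24, adjusted p = 0.514). By reads per kilobase it ranked 403 and 810 in the metamorphosed livers and 33 and 45 in the neotenic livers. The histidine-rich glycoprotein hrg.L had 1552 and 913 CPM in metamorphosed livers, against 7105 and 4167 CPM in neotenic livers.

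The study reports fibrinogen genes as enriched in metamorphosed liver, without naming the data behind that result. It describes its bulk libraries as a comparison for its single-cell data. The bulk values below may therefore not be on the measure that the study used. The beta chain fgb.S had 36142 and 67289 CPM in metamorphosed livers and 36000.2 and 25204 CPM in neotenic livers. The gamma chain fgg had 34067 and 58652 CPM in metamorphosed livers and 34111 and 23095 CPM in neotenic livers. In both chains metamorphosed liver 1 lay close to neotenic liver 1, and metamorphosed liver 2 was the highest library. The log2 fold changes of 0.76 (SE 1.42) and 0.70 (SE 1.37) were smaller than their standard errors, with an adjusted p of 1 each. The alpha chain matched no gene model by symbol and is not analysed here.

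The study names a few more genes for hepatocytes, from its single-cell data and not for a difference between the states. The protease hpn had 166 and 129 CPM in metamorphosed livers and 156 and 69.6 CPM in neotenic livers. The heparin cofactor serpind1.L had 1395 and 2331 CPM in metamorphosed livers and 3816 and 1391 CPM in neotenic livers. The galectin lgals2 was lower in both metamorphosed livers, with 119.8 and 158 CPM, against 538 and 268 CPM in neotenic livers (adjusted p = 1).

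Coagulation and fibrinolysis had 20 tested genes, 3 higher and 5 lower without overlap (14.5% and 10.6% of all genes), with a median of -0.19. Complement had 19, 2 higher and 3 lower, with a median of -0.11, and lipoproteins and their processing had 13, 2 higher and 2 lower, with a median of 0.05. The lipoprotein scaffold APOB had 21316 and 9093 CPM in metamorphosed livers and 24398 and 16399 CPM in neotenic livers. Of 16 listed acute phase genes 4 were tested, and socs3, the feedback inhibitor of cytokine signalling, had 11.01 and 94.8 CPM in metamorphosed livers, against 7.28 and 3.83 CPM in neotenic livers. No member of these lists passed. The list of egg yolk precursors matched 1 symbol, that of the matrix protein vitrin, and gives no reading of yolk genes.

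Of 13 tested transcription factors of the liver, 3 were higher and 1 lower without overlap (14.5% and 10.6% of all genes), with a median of 0.13. FOXA3 had 119 and 116 CPM in metamorphosed livers, against 89.3 and 30.0 CPM in neotenic livers. RXRA, the partner of the thyroid hormone receptor, had 39.7 and 23.3 CPM in metamorphosed livers, against 73.9 and 50.3 CPM in neotenic livers. Neither difference passed. Among 19 genes of growth hormone, insulin and fasting signals, the median was 0.10, which was -0.40 without metamorphosed liver 1 and 0.90 without neotenic liver 1. IGFBP1, a fasting-induced binding protein of insulin-like growth factors, had 62.5 and 141 CPM in metamorphosed livers, against 23.0 and 24.9 CPM in neotenic livers.

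Outside these lists, the named genes that were higher in metamorphosed livers came from several functions. NFIX, a transcription factor, had 73.2 and 42.8 CPM in metamorphosed livers, against 2.12 and 4.39 CPM in neotenic livers (log2 fold change 4.15, SE 1.03, adjusted p = 0.238). BCO1, which cleaves beta-carotene into vitamin A, had 12.5 and 187 CPM in metamorphosed livers, against 4.76 and 6.23 CPM in neotenic livers. The potassium channel subunit kcng4 had 58.6 and 52.1 CPM in metamorphosed livers, against 4.10 and 0.142 CPM in neotenic livers. In all 3 the states did not overlap, though the BCO1 difference came mostly from metamorphosed liver 2.

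The receptor tyrosine kinase tyro3, the channel genes kcnn4 and ABCC9, the transporter SLC12A8, TMEM72, TLDC2, CRIP2, TMEM132A and TMEM63B were higher in both metamorphosed livers by log2 fold changes between 1.42 and 5.06, with adjusted p-values of 0.198 or more. Among those lower, DDC, which makes dopamine and serotonin from their amino acid precursors, had 2.43 and 2.30 CPM in metamorphosed livers, against 43.5 and 16.4 CPM in neotenic livers. POP1, a protein of ribonuclease P, CRYZ, a quinone reductase, and ACSS3, a ligase of short-chain fatty acids, were lower in both metamorphosed livers by log2 fold changes of -2.50, -1.89 and -1.93. None passed.

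Genes of ribosomal proteins, of endoplasmic reticulum folding and stress and of the proteasome followed metamorphosed liver 2 more than the state. Cytosolic ribosomal protein genes (48 tested) had a median log2 fold change of 0.39, which was -0.31 without that library. Genes of endoplasmic reticulum folding and stress (18 tested) had a median of 0.41, and -0.80 without it. Proteasome genes (30 tested) had 0.20, and -0.44 without it. Metamorphosed liver 2 was the highest of the 4 libraries in 35 ribosomal, 14 folding and stress and 28 proteasome genes, beside 33.4% of all genes. The chaperone calr, for example, had 2509.8 and 6472 CPM in metamorphosed livers and 3643 and 2917 CPM in neotenic livers. Some lists were ordered by the batch number of the labels in both states. Both libraries of batch 2 lay above both of batch 1 in 21 of 27 cell division, 16 of 30 proteasome and 19 of 48 ribosomal protein genes, beside 3364 of all 20216 genes. Both libraries of batch 1 lay above in 8 of 13 liver transcription factors and 9 of 19 genes of growth hormone, insulin and fasting signals, beside 2373 of all genes. The part of the batch in the results was not tested. Cell division genes (27 tested) had 0 higher and 3 lower without overlap (14.5% and 10.6% of all genes). Their median was -0.28, which was -1.16 without metamorphosed liver 2 and 0.10 without metamorphosed liver 1. The gene mki67.S, a proliferation marker, had 164 and 158 CPM in metamorphosed livers, against 209 and 282 CPM in neotenic livers.

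Immune and matrix genes were measured in the same way. CD74, the chain that loads class II antigen presentation, had 571 and 3027 CPM in metamorphosed livers, against 495 and 306 CPM in neotenic livers, and most of the difference came from metamorphosed liver 2. Of 20 tested genes of collagens and matrix, 7 were higher and 2 lower without overlap (14.5% and 10.6% of all genes), with a median of 0.46, and 0.05 without metamorphosed liver 2. MMP14, a membrane-bound collagenase, had 26.1 and 40.4 CPM in metamorphosed livers, against 12.8 and 10.6 CPM in neotenic livers. MMP2, which MMP14 activates, had 51.5 and 142 CPM in metamorphosed livers, against 28.5 and 35.1 CPM in neotenic livers, while COL3A1, a collagen chain, had 396 and 757 CPM in metamorphosed livers, against 998 and 1318 CPM in neotenic livers. No gene of these groups passed.

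Markers of other cells differed between the liver libraries, and their part in the results above was not tested. For pancreatic acinar cells, 5 of 16 markers matched, none was at 0 in all libraries, and their summed level was 77.2 and 418 CPM in metamorphosed livers and 1932 and 109 CPM in neotenic livers. The trypsinogen prss1.L, for example, had 3.08 and 98.1 CPM in metamorphosed livers and 654 and 7.23 CPM in neotenic livers. Thus neotenic liver 1, and to a lesser degree metamorphosed liver 2, held transcripts of digestive enzymes, the same libraries in which cholesterol genes were high. Summed skeletal muscle markers (9 of 12 matched) were 230 and 620 CPM in metamorphosed livers and 346 and 204 CPM in neotenic livers.

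Markers of blood and vessels were measured likewise. Of 18 markers of the red blood cell lineage 7 matched, and 6 of the 7 were higher in both metamorphosed livers (14.5% of all genes were), none with an unadjusted p under 0.05, with a summed level of 162 and 195 CPM in metamorphosed livers, against 94.4 and 85.0 CPM in neotenic livers. SLC4A1, the anion exchanger of red cells, had 66.1 and 58.9 CPM in metamorphosed livers, against 15.1 and 22.1 CPM in neotenic livers. Endothelial markers (12 of 13 matched) summed to 427 and 1549 CPM in metamorphosed livers and 496 and 453 CPM in neotenic livers. Of these markers, 4 were higher without overlap (14.5% of all genes were). The sinusoidal receptor STAB2 made up most of the sum in metamorphosed liver 2, with 167 and 899 CPM in metamorphosed livers and 226 and 204 CPM in neotenic livers. Macrophage markers (5 of 13 matched) summed to 337 and 635 CPM in metamorphosed livers and 355 and 280.1 CPM in neotenic livers.

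Of 12 epidermal markers 7 matched, with an overlapping summed level of 177 and 76.8 CPM in metamorphosed livers and 238 and 147 CPM in neotenic livers. The 2 of them that did not overlap were keratins. KRT124 had no count in either metamorphosed liver and 15.2 and 2.98 CPM in neotenic livers, while krt12.S had 0 and 0.0823 CPM in metamorphosed livers, against 21.6 and 3.83 CPM in neotenic livers. Bile duct markers (5 of 10 matched) stayed between 62.9 and 110.1 CPM in sum, and CFTR was at 0 in 3 of the 4 libraries. Stellate cell and fibroblast markers (9 of 12) summed to 804 and 1288 CPM in metamorphosed livers and 1247 and 1625 CPM in neotenic livers, a sum led by COL3A1, while 7 of the 9 had a log2 fold change above 0 and the median was 0.68. Granulocyte markers (3 of 14) summed to 363 and 378 CPM in metamorphosed livers, against 516 and 595 CPM in neotenic livers. Of these 3, 2 were lower without overlap (10.6% of all genes were) and 1 had a log2 fold change above 0. Their mean log2(CPM of the library total + 1) overlapped, at 6.11 and 4.77 in metamorphosed livers and 5.44 and 6.11 in neotenic livers. Of 6 B cell markers 5 had a log2 fold change below 0. The 1 above 0 was JCHAIN, a chain of secreted antibodies, whose states overlapped. It had 38.5 and 228 CPM in metamorphosed livers and 81.4 and 32.4 CPM in neotenic livers. Summed T cell, intestinal and gastric markers were highest in metamorphosed liver 2. Summed pigment cell markers were lower in both metamorphosed livers, at 6.64 and 5.10 CPM, against 18.3 and 14.03 CPM in neotenic livers. Of the 5 matched pigment markers, 1 was higher and 1 lower without overlap (14.5% and 10.6% of all genes). Only 2 had a log2 fold change below 0, and SLC45A2 was at 0 throughout.

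**Figure D5:**
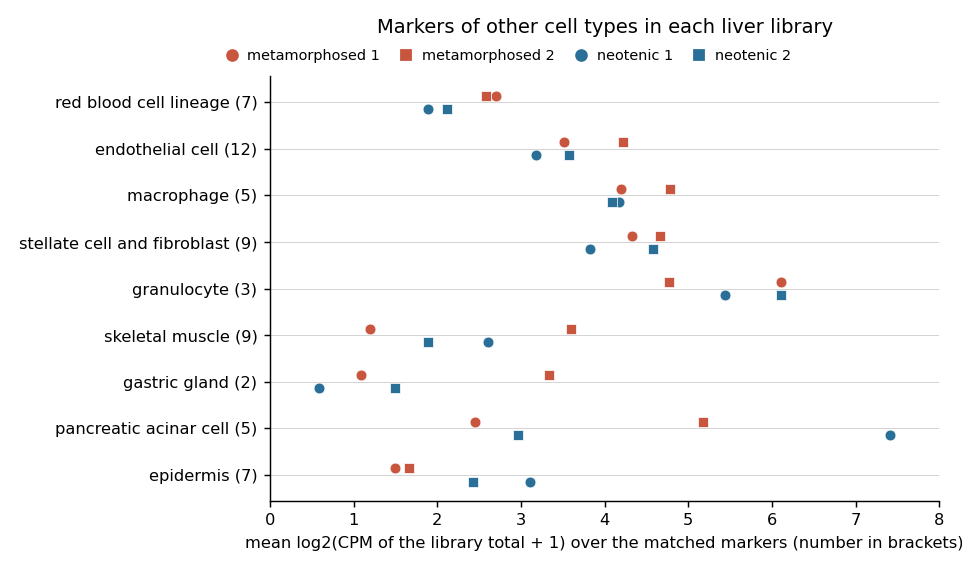
Mean log2(CPM of the library total + 1) over the matched markers of 9 cell types in each liver library, metamorphosed livers in red above neotenic livers in blue, circles for library 1 and squares for library 2. Red blood cell markers were higher in both metamorphosed libraries (2.70 and 2.59, against 1.89 and 2.12), and pancreatic acinar markers were highest in neotenic library 1 (7.41).

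Whether a difference was particular to liver was tested against the mean difference of the 11 other tissues with 2 libraries in both states. The study's methods give 2 animals for each state, so libraries of different tissues share animals. The fit treated all libraries as independent, and its standard errors and p-values leave that sharing out. In edgeR 0 of 20216 genes passed, while 460 (2.28%) had an unadjusted p under 0.05. ELOVL6 came closest with pisd.S. For ELOVL6 the liver difference was -3.08 and the mean over other tissues -0.64, a difference of -2.44 (SE 0.46, adjusted p = 0.0732). For pisd.S the difference was 3.87 (SE 0.72, adjusted p = 0.0732). CRYZ and ACAD11 differed from other tissues by -2.17 (SE 0.49, adjusted p = 0.248) and -3.27 (SE 0.72, adjusted p = 0.237).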

How the data were processed

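Adult axolotl tissues were profiled by bulk RNA-seq of polyA RNA. The authors counted paired fragments over exons of AmexG_v3.0.0 gene models with featureCounts 1.6.0, without strand and without fragments that mapped to several places, and deposited raw counts for 23251 gene models. The submitters' processing notes also name STAR and DESeq2, with no version. Without strand, reads of overlapping or antisense genes cannot be told apart. Multimapping fragments were left out, which lowers near-identical gene copies.

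Genes were tested with edgeR 4.0.16 (TMM, filterByExpr, quasi-likelihood test, R 4.3.3) on the counts of all 61 libraries in 32 groups, with Benjamini-Hochberg adjustment over 20216 genes and a threshold of 0.05. The common dispersion was 0.313 with 29 residual degrees of freedom. The fit had no term for the animal, although tissues of 1 animal gave several libraries. The liver difference was also tested against the mean difference of 11 other tissues. Totals of the series ranged between 69278 and 27389476. With 2 libraries per state an exact permutation test of 1 gene cannot reach 0.05, so that every p rests on this model. Symbols were taken from the gene IDs, without .L or .S endings and ignoring case, and of several models the one with most counts in liver was used; 11434 models had a symbol in the RefSeq table of the assembly UKY_AmexF1_1.

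The genes named were those past the threshold; in each direction the 15 of largest log2 fold change among genes with an unadjusted p under 0.01, no overlap between states, a RefSeq symbol and a level of 5 CPM or more throughout the state where the gene was higher; per list, members among the 3 of lowest p in a direction or the 3 of highest CPM; genes the study names for liver; and the 3 models with most reads per kilobase per library. Genes outside this rule are named as picked after their values were seen, and further models of a named symbol were added in the same way. Members, lists and tests were chosen with earlier results of these data known. Alternatives were DESeq2 1.42.0 as test and as size factors, no filter, summed gene models, a robust spread, a fold threshold, fewer libraries, the batch number as a block, and leaving out each liver library. The scripts were tested on simulated data.

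Over all genes, same-numbered libraries did not deviate together, although some gene lists were ordered by batch. The correlation of deviations from the state means was -0.20 in liver and lay between -0.44 and 0.28 over 12 tissues, so that the number was not used to pair libraries. Values of some genes are not reported here.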

Additional observations from a re-analysis of the deposited data

How the results depend on the processing

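The count of 4 genes (2 higher and 2 lower in metamorphosed livers) was the same with DESeq2 size factors, without a filter, with gene models summed, with a robust spread and with a log2 fold change of at least 1. Summing joined only models with a RefSeq symbol. It therefore left mRNA00209, LOC103066171 and pisd.S as they were and did not join pisd.S with pisd. The fold threshold could remove none of the 4 genes, since the smallest change in size among them was -3.08, of ELOVL6. DESeq2 called 90 (61 higher, 29 lower), all 4 genes among them, and gave 3136 genes no adjusted p. A fit of only the 4 liver libraries called 12 of 13473 genes tested (8 higher, 4 lower), with 2 residual degrees of freedom. Leaving out 9 libraries of other tissues that stood apart gave 37 (21 higher, 16 lower) and 8 genes in the test against other tissues. With the batch number as a replicate block the count was 8 (6 higher, 2 lower, all 4 genes among them) over all libraries, and 18 (12 higher, 6 lower, 2 of the 4 genes among them) in the liver libraries alone. A block in the 4 liver libraries left 1 residual degree of freedom. A crossed replicate block in these libraries, chosen after seeing the data, called 0 in edgeR, with 648 of 13473 genes at an unadjusted p under 0.05. Leaving out 1 liver library gave between 1 and 8 genes (between 0 and 6 higher, between 1 and 2 lower), and between 0 and 2 in the test against other tissues: 8 without metamorphosed liver 1, 3 without metamorphosed liver 2, 2 without neotenic liver 1 and 1 without neotenic liver 2. There the lone library of a state is assumed to vary like the other groups. The cause of these differences was not tested. The test against other tissues could not be made with 4 libraries and was not run in DESeq2. Of the genes picked by the rules above, the 50 with an unadjusted p under 0.05 in edgeR's test were followed through the alternatives. Being picked by low p, they were unlikely to change sign, and named genes with a higher p were not followed. Of the 50, 1 reversed, the small HPD model, at -0.79 with gene models summed, and of 46 that did not pass, 13 passed under an alternative. Of 15 lists with a median of at least 0.3 in size, 10 had 1 sign under all alternatives but the crossed block. Depth limits genes near 3 counts per library, and 2 animals per state limit all others.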

Other observations

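Several genes outside the groups above differed between the states, and all of them were picked after their values were seen. The gene model mRNA00071, which has no name in the files, had 339 and 282 CPM in metamorphosed livers, against 1.46 and 5.10 CPM in neotenic livers (adjusted p = 0.0871). The gene model mRNA00113, also unnamed, had 252 and 117 CPM in metamorphosed livers, against 1.19 and 0.283 CPM in neotenic livers (adjusted p = 0.0871). Both came close to the threshold of 0.05 in edgeR's test and neither passed it.

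LGALS3BP, a secreted glycoprotein that binds galectins, has 5 gene models that did not move together. The model AMEXTC_0340000023871 had 136 and 94.1 CPM in metamorphosed livers, against 2.38 and 2.55 CPM in neotenic livers (log2 fold change 5.53, adjusted p = 0.117). Another, AMEXTC_0340000160792, had 76.6 and 84.7 CPM in metamorphosed livers, against 129 and 114 CPM in neotenic livers. No model of LGALS3BP passed.

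The gene pro-opiomelanocortin, the precursor of pituitary peptide hormones, had 0 and 22.7 CPM in metamorphosed livers and no count in neotenic livers, so that its signal came from metamorphosed liver 2 alone.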
